A study of Homo sapiens with 12 samples.

Results

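The 125 genes described here are the annotated neighbours of CD34 within 3 Mb on either side of it on human chromosome 1. They were taken as every gene of GENCODE v29 (GRCh38) that overlaps positions 204880972 to 210911402 and has a row in the count table, apart from CD34 itself and 1 further gene that is not analysed here. The table has 60604 gene rows. Of the 125 neighbours, 58 are protein coding and 67 are not, and 29 of these 67 are pseudogenes. RNA was sequenced from HEK293T cells, a line grown from human embryonic kidney that holds a viral large T antigen, to ask what a CRISPR activator does besides switching on its target. The first group received a plasmid for dCas9-VP160 together with 6 guide RNAs for the CD34 promoter and is called guides below. The second received the dCas9-VP160 plasmid without CD34 guides. The third received no plasmid, and the labels describe it both as not transfected and as given transfection reagents only. Transfection used a Lipofectamine reagent with a total of 5.4 pmol of plasmid DNA and lasted 48 h in dishes of 100 mm. A plasmid lacking dCas9-VP160 was given to none of the groups, so effects of plasmid DNA and of the protein cannot be told apart. Each group was studied in 2 experiments, each on its own batch of cells and with 2 technical replicates, which gives 4 libraries a group and 12 in all.

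The protein dCas9-VP160 is a Cas9 that can no longer cut DNA, joined to repeats of a viral transcriptional activation domain. A guide RNA brings it to a matching DNA sequence that lies beside a short motif, the PAM, and the activator then recruits the transcription machinery to the nearby promoter. Because neighbouring genes can share regulatory DNA and a guide can match other sites in part, the surroundings of a target are a natural place to look for effects beyond it. The surroundings of CD34 hold the complement control genes CD55, CD46, CR1, CR2, C4BPA and C4BPB, whose products limit complement attack on the body's own cells or bind complement fragments, next to a cluster of cytokine genes that includes IL10 and to the host transcript of a pair of miR-29 microRNAs.

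The libraries held 6750035 to 11932244 gene counts, and the neighbours together took 0.0932% to 0.104% of them. CD34, the target, had 94.5 to 107 CPM (counts scaled to library size with TMM normalisation) in the 4 guide libraries, 0.774 to 1.02 CPM with dCas9-VP160 alone and 1.52 to 2.47 CPM without plasmid. Markers of the cell line (NEFL, NEFM, PAX2, LHX1 and SALL1) summed to 517 to 578 CPM in guide libraries, 466 to 535 CPM with dCas9-VP160 alone and 338 to 389 CPM without plasmid. The 7 haematopoietic markers looked at summed to no more than 8.42 CPM in any library and the 5 endothelial markers to no more than 5.32 CPM. The part of these markers in the results was not tested, and in RNA from whole dishes fewer cells of a type and less RNA per cell cannot be told apart. Spike-in RNA took 0.719% and 0.404% of the libraries without plasmid in experiment 1 and at most 0.00818% of the others, and was kept out of all values. The labels do not say that the experiments came from different lines or donors. P-values of the main fit, on summed replicates, therefore describe how group differences varied between these 2 batches of 1 cell line. The shift between batches that all groups share is taken out by the model, so it is not part of that spread. With an experiment left out, p-values describe the spread between technical replicates only.

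Promoter sequences are shown for the target, for the 4 neighbours that were called when the guides were added, and for TMCC2, because a guide for the CD34 promoter could act elsewhere where a similar stretch beside a PAM occurs. The windows are those of RefSeq on GRCh38.p14 and run from 250 bases before the start of transcription to 50 bases after it. The labels hold no letters of the 6 guides, so each window was compared with all 65 positions of the CD34 window, on both strands, where 20 bases are followed by NGG, the PAM of the common Cas9. Capitals mark, in each neighbour, the longest run that ends at an NGG and is shared, PAM-side bases first, with any such position in the CD34 window, together with its 3 PAM bases (CCN where the match is on the other strand), and in CD34 the matching positions.
CD34, chr1:207911076-207911375, minus strand: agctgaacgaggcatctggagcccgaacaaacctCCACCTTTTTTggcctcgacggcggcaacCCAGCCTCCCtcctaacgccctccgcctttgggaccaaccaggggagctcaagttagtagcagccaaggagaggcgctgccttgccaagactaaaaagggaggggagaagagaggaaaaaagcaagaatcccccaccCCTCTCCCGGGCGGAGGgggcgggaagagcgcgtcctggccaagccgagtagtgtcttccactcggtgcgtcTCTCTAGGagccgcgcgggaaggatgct
HHAT, chr1:210328002-210328301, plus strand: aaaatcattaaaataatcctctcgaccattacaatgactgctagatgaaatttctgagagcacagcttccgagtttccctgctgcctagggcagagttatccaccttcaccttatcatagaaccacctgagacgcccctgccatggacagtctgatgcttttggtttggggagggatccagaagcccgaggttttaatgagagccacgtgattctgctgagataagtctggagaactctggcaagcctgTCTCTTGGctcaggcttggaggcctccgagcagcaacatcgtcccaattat
CD46, chr1:207751804-207752103, plus strand: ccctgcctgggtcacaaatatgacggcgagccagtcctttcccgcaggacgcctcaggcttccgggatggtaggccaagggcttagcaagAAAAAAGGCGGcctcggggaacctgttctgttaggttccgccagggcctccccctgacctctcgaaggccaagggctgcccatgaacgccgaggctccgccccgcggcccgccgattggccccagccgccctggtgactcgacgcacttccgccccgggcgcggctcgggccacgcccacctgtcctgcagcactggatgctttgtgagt
IKBKE, chr1:206470226-206470525, plus strand: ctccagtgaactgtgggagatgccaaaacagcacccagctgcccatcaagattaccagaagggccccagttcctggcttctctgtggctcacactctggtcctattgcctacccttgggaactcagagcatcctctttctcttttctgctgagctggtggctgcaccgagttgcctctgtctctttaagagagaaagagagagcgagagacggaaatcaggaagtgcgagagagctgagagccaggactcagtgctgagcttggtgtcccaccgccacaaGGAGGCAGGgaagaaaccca
DYRK3, chr1:206635286-206635585, plus strand: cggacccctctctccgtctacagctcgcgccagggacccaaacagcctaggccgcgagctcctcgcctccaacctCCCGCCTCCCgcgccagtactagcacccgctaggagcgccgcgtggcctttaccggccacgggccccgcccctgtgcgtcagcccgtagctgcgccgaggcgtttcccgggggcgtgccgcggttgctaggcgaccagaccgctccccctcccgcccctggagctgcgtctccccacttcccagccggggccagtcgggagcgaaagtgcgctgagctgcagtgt
TMCC2, chr1:205227696-205227995, plus strand: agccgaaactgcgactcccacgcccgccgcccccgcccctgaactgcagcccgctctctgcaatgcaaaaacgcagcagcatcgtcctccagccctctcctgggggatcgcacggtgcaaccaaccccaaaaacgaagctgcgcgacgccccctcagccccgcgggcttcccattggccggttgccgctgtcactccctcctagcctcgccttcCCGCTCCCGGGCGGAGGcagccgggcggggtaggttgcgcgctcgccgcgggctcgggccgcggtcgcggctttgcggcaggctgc

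The shared run was 5 bases in HHAT, 8 in CD46, 6 in IKBKE and 7 in DYRK3. Runs at least that long occurred in 93.2%, 18.7%, 74.0% and 42.6% of the 34940 other promoter windows for those 4 genes in that order, and the median over all windows was 6. The neighbour with the longest run was TMCC2, with 14 bases, a length that only 0.0343% of windows reached. TMCC2 encodes a membrane protein of the endoplasmic reticulum and lies 2595 kb from CD34. It had 10.98, 10.01, 10.48 and 9.25 CPM in the 4 guide libraries, against 10.6, 8.77, 10.7 and 12.7 CPM with dCas9-VP160 alone. The guide libraries lay within the range of the others, and the log2 fold change was -0.10 (SE 0.14, adjusted p = 0.734). The interval of 2 SE around it is -0.38 to 0.17. A match of letters is a description of the sequence, and whether any guide uses that position is not known here. The guides may also lie outside the CD34 window, and for each neighbour only the window nearest its annotated start was compared.

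Most of the neighbourhood was too quiet to test. After the low-count filter 47 neighbours were tested, 41 protein coding and 6 not, while 78 were not tested and none of those had more than 42 counts over all 12 libraries. Of the untested, 33 had no count anywhere. The tested genes were unevenly placed. On the side of higher coordinates PLXNA2 lies 0.111 Mb from CD34 and the next tested gene, CAMK1G, 1.67 Mb away, and the 15 neighbours between them had 11 counts in all. The other tested genes of the innermost 1 Mb lie on the side of lower coordinates, where the complement genes are. Per kilobase of exon, the highest protein-coding genes were NUCKS1, a chromatin-bound phosphoprotein, at 31.0, 30.9 and 37.5 CPM per kb with guides, with dCas9-VP160 alone and without plasmid, then CD46 at 16.4, 13.4 and 17.4 CPM per kb and RBBP5, a core subunit of histone methyltransferase complexes, at 13.8, 12.2 and 9.41 CPM per kb. The processed pseudogenes SNRPGP10 and AL591846.1 were high on the same scale, but they are near-identical copies of expressed genes and their counts are uncertain.

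Adding the guides to dCas9-VP160 changed few neighbours. HHAT, CD46 and DYRK3 rose and IKBKE fell, which makes 4 of 47 (8.51%) at an adjusted p under 0.05, against 7.56% of all 19662 tested genes. The 3 that rose compare with 4.16% of all genes called higher, and the 1 that fell with 3.41% called lower. The share among neighbours was near that background, and the other tested genes of chromosome 1 gave 7.75% of 1819. The median log2 fold change of the tested neighbours was -3.3e-04, beside -0.0040 over all tested genes. The calls were at 0.0855, 1.20, 1.38 and 2.42 Mb from CD34, 1 in the band under 0.5 Mb, none in that of 0.5 to 1 Mb, 2 in that of 1 to 2 Mb and 1 in that of 2 to 3 Mb, of 6, 4, 17 and 20 tested. All 4 calls rest on treating the experiment as a block: without it none of the 47 passed in edgeR (adjusted p 0.248 to 0.611 for these 4 genes), 6 had an unadjusted p under 0.05, and 1 of all 19662 genes passed.

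**Figure D1:**
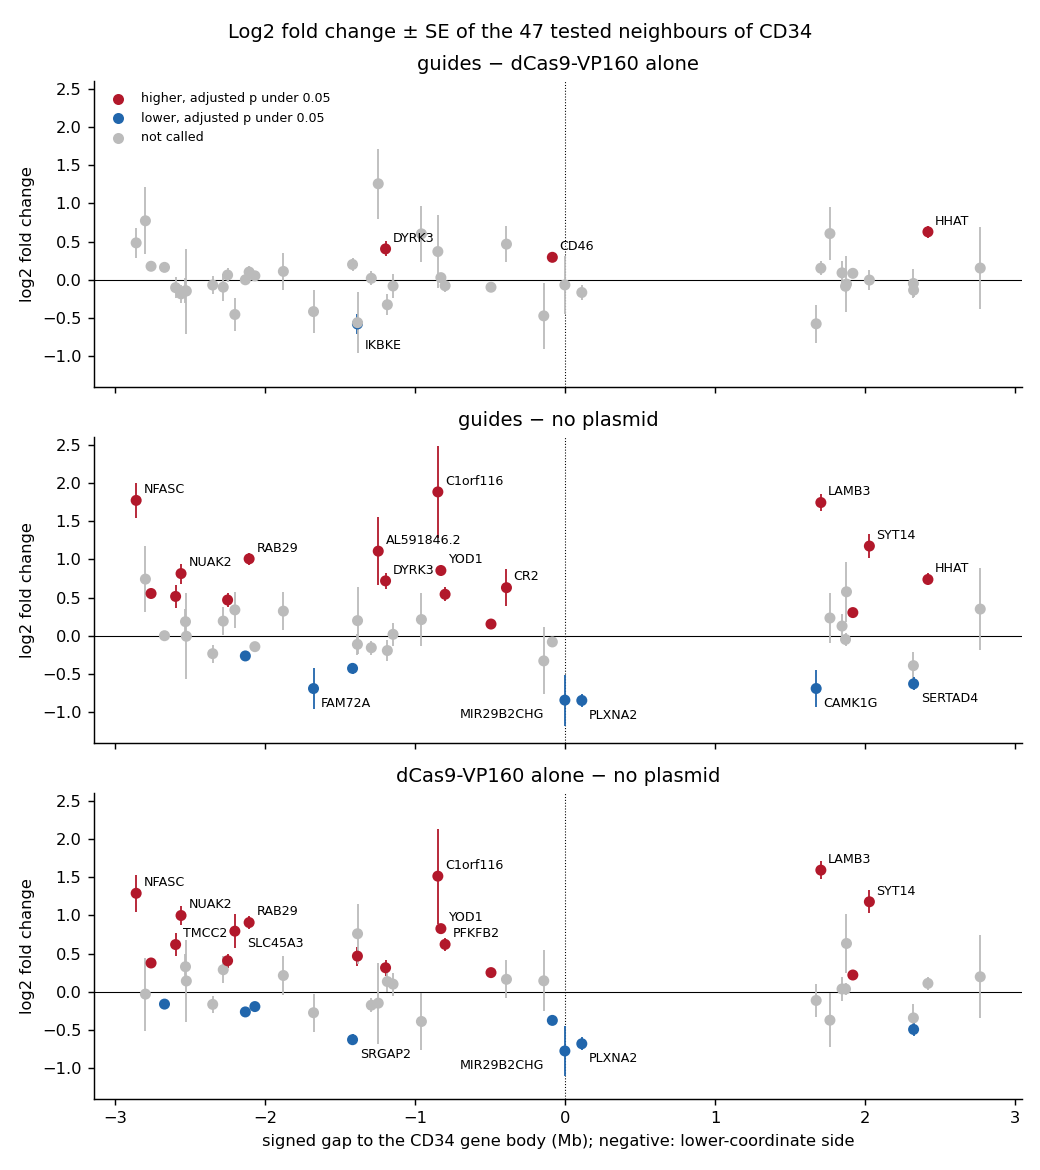
Log2 fold change with its SE (vertical axis) of the 47 tested neighbours against their signed gap to the CD34 gene body in Mb (horizontal axis), for guides minus dCas9-VP160 alone, guides minus no plasmid and dCas9-VP160 alone minus no plasmid. Red and blue points passed the test, 4 in the upper panel and 24 in each of the others, and called genes lie at short and long gaps alike.

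HHAT, an enzyme of the endoplasmic reticulum that attaches a fatty acid to Hedgehog proteins, lies at chromosome 1, 210328252 to 210676296, on the plus strand. It had 37.9 and 35.2 CPM in experiment 1 and 33.1 and 33.3 CPM in experiment 2 with guides. With dCas9-VP160 alone it had 22.9, 21.9, 24.0 and 21.2 CPM, and without plasmid 22.8, 22.4, 19.5 and 19.3 CPM. All 4 guide libraries lay above all 8 others, while those with dCas9-VP160 alone and those without plasmid overlapped. The means were 34.9 ± 2.37 CPM with guides, 22.5 ± 0.141 CPM with dCas9-VP160 alone and 21.0 ± 2.30 CPM without plasmid (SD, n = 2 experiments). The log2 fold change was 0.63 (SE 0.078, adjusted p = 7.4e-06, edgeR's quasi-likelihood test with Benjamini-Hochberg adjustment) for guides over dCas9-VP160 alone and 0.74 (SE 0.078, adjusted p = 9.5e-09) for guides over no plasmid. For dCas9-VP160 alone over no plasmid it was 0.11 (SE 0.082, adjusted p = 0.279), with an interval of 2 SE of -0.06 to 0.27. Within the experiments the guides' log2 difference from dCas9-VP160 alone was 0.70 and 0.55. HHAT was the only neighbour that differed between guides and each of the other groups while not passing the test between those other groups, and it is the farthest from CD34 of the 4 called.

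CD46, a membrane cofactor for the inactivation of complement fragments on host cells, is the nearest tested protein-coding gene to CD34, with a gap of 85.5 kb (chromosome 1, 207752057 to 207795513, plus strand). It had 137.7, 137.6, 145.5 and 149.7 CPM in the guide libraries, 108.4, 113.2, 122.1 and 122.5 CPM with dCas9-VP160 alone and 140.5, 140.7, 164.0 and 160.6 CPM without plasmid. The libraries with dCas9-VP160 alone lay below all others, and the guide libraries overlapped those without plasmid. The log2 fold change was 0.29 (SE 0.045, adjusted p = 1.2e-04) for guides over dCas9-VP160 alone and -0.37 (SE 0.044, adjusted p = 7.3e-08) for dCas9-VP160 alone over no plasmid. Between guides and no plasmid it was -0.08 (SE 0.044, adjusted p = 0.127), with an interval of 2 SE of -0.17 to 0.0072. The first 2 of these comparisons share the dCas9-VP160 libraries, so their opposite signs are not independent of each other.

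With dCas9-VP160 alone, where CD46 had its lowest mean, IKBKE, a kinase that activates interferon regulatory factors, had its highest. Its libraries had 8.61, 5.60, 6.73 and 7.54 CPM with guides, 11.6, 10.2, 9.07 and 10.7 CPM with dCas9-VP160 alone and 9.24, 7.87, 6.46 and 7.17 CPM without plasmid. The guide libraries lay below all those with dCas9-VP160 alone and overlapped those without plasmid. The log2 fold change was -0.58 (SE 0.13, adjusted p = 0.0053) for guides over dCas9-VP160 alone, 0.47 (SE 0.12, adjusted p = 0.0024) for dCas9-VP160 alone over no plasmid and -0.11 (SE 0.14, adjusted p = 0.512) for guides over no plasmid. The call between guides and dCas9-VP160 alone was lost without replicate 1 (adjusted p = 0.0529), without replicate 2 (0.178) and without experiment 1 (0.190), and DESeq2 gave it no adjusted p. The call between dCas9-VP160 alone and no plasmid was lost with DESeq2 (0.0925), without replicate 2 (0.0600) and without experiment 2 (0.0927). C1orf147, an antisense gene that shares 156 exon bases with IKBKE, had 0.749, 1.14 and 0.654 CPM on average in the same 3 groups and was not called. The library kits named in the labels do not mark strand, while the design text names a directional library. Whether reads of bases shared by genes on opposite strands can be told apart is therefore uncertain, here and for the other overlaps given below.

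DYRK3, a kinase that takes part in the dissolution of stress granules, differed at each step. It had 19.4, 22.2, 16.3 and 15.4 CPM with guides, 14.7, 14.6, 14.6 and 11.7 CPM with dCas9-VP160 alone and 11.6, 12.4, 9.34 and 11.2 CPM without plasmid. The guide libraries lay above all others, and those with dCas9-VP160 alone overlapped those without plasmid. The log2 fold change was 0.40 (SE 0.098, adjusted p = 0.0105) for guides over dCas9-VP160 alone, 0.31 (SE 0.10, adjusted p = 0.014) for dCas9-VP160 alone over no plasmid and 0.72 (SE 0.10, adjusted p = 1.1e-06) for guides over no plasmid. The first of these calls was lost with DESeq2 (adjusted p = 0.202), without replicate 1 (0.0536), without replicate 2 (0.271) and without experiment 1 (0.432). The second held in 5 of 10 alternative fits. Among its losses were those with DESeq2 (0.174), without replicate 1 (0.395), without experiment 1 (0.0828) and without experiment 2 (0.133).

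**Figure D2:**
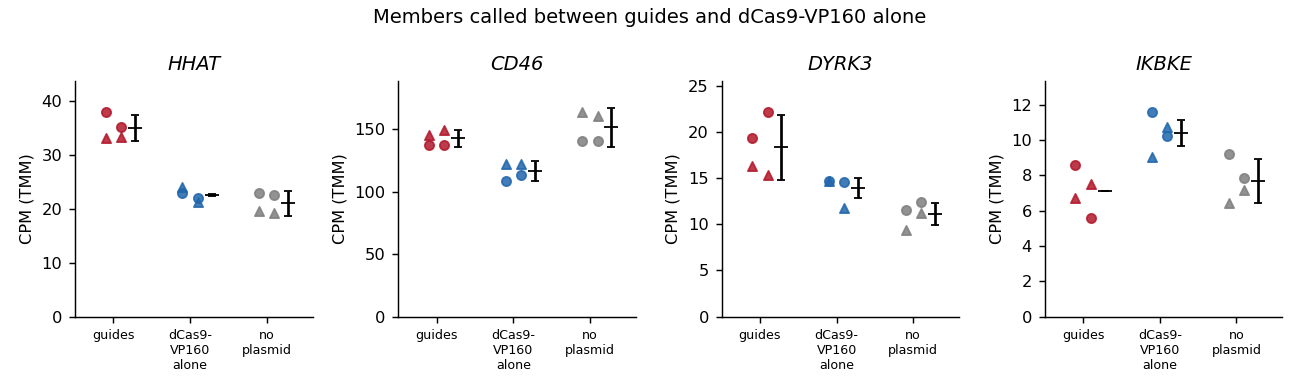
CPM in each library of the 4 neighbours called between guides and dCas9-VP160 alone (circles, experiment 1; triangles, experiment 2), with the mean and SD of the 2 experiments in black. HHAT stands apart in the guide libraries, CD46 is lowest and IKBKE highest with dCas9-VP160 alone, and DYRK3 is highest with guides and lowest without plasmid.

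The 6 tested genes under 0.5 Mb from CD34 showed no common direction when the guides were added. Besides CD46 they were MIR29B2CHG, PLXNA2, CR1L, CR2 and CD55, and CD46 alone was called between guides and dCas9-VP160 alone. MIR29B2CHG, the host transcript of miR-29b and miR-29c, has a gap of 1.88 kb to the CD34 gene body and is the nearest neighbour of all (chromosome 1, 207801518 to 207879096, minus strand). The mature 3p microRNAs of the host, from RefSeq on GRCh38.p14, share the seed that is set in capitals and are shown because the host was lower in both transfected groups.
hsa-miR-29b-3p: uAGCACCAuuugaaaucaguguu
hsa-miR-29c-3p: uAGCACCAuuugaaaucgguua
The mature microRNAs were not measured. MIR29B2CHG had 0.566, 1.29, 0.772 and 1.28 CPM with guides, 1.74, 1.02, 0.437 and 0.749 CPM with dCas9-VP160 alone and 1.29, 2.39, 1.73 and 1.40 CPM without plasmid. The groups overlapped at these low levels. The log2 fold change was -0.07 (SE 0.38, adjusted p = 0.948, interval of 2 SE -0.82 to 0.69) for guides over dCas9-VP160 alone, -0.84 (SE 0.34, adjusted p = 0.037) for guides over no plasmid and -0.77 (SE 0.32, adjusted p = 0.048) for dCas9-VP160 alone over no plasmid. Neither call against no plasmid held, for guides and for dCas9-VP160 alone in turn, with DESeq2 (adjusted p = 0.292 and 0.314), without replicate 2 (0.0847 and 0.492) or without experiment 2 (0.0656 and 0.492). The call for guides was also lost without replicate 1 (0.267) and without experiment 1 (0.302), and that for dCas9-VP160 alone without the low-count filter (0.0544). Of 10 alternative fits, 4 gave the call for guides and 5 that for dCas9-VP160 alone.

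PLXNA2, a receptor for semaphorin guidance cues, is the nearest tested gene on the other side of CD34 (chromosome 1, 208022242 to 208244320, minus strand). It had 19.6, 21.5, 12.6 and 16.2 CPM with guides, 21.6, 19.7, 17.6 and 18.4 CPM with dCas9-VP160 alone and 33.6, 34.7, 26.7 and 29.9 CPM without plasmid. Both transfected groups lay below every library without plasmid and overlapped each other. It fell to 0.556 of the level without plasmid with guides (log2 fold change -0.85, SE 0.087, adjusted p = 5.0e-09) and to 0.624 with dCas9-VP160 alone (log2 fold change -0.68, SE 0.083, adjusted p = 1.3e-07). Between guides and dCas9-VP160 alone the log2 fold change was -0.17 (SE 0.094, adjusted p = 0.326, interval of 2 SE -0.35 to 0.02).

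Of the complement genes, CD55, which speeds the decay of complement convertases, had 45.0, 51.7, 54.6 and 53.4 CPM with guides, 50.01, 48.5, 61.7 and 59.2 CPM with dCas9-VP160 alone and 44.2, 42.1, 51.9 and 47.6 CPM without plasmid. The groups overlapped, and the experiments differed within each. It rose with dCas9-VP160 alone over no plasmid (log2 fold change 0.25, SE 0.060, adjusted p = 0.0011). That call held in 8 of 10 alternative fits, with an adjusted p up to 0.152, and was lost without experiment 2 (0.0998) among others. CD55 also rose with guides over no plasmid (0.15, SE 0.062, adjusted p = 0.039), a call that held in 3 of 10 alternative fits. DESeq2 (0.202), a fit without the low-count filter (0.0771), a fit of the 12 libraries (0.0535), leaving out replicate 2 (0.628) and leaving out experiment 1 (0.284) or 2 (0.163) did not give it. CR2, the complement receptor of B cells, had 2.49, 3.23, 3.53 and 4.27 CPM with guides, 4.06, 0.877, 1.42 and 2.58 CPM with dCas9-VP160 alone and 3.39, 1.86, 1.27 and 2.23 CPM without plasmid. It was called for guides over no plasmid only (log2 fold change 0.63, SE 0.24, adjusted p = 0.029) although those groups overlapped, and the call held in 5 of 10 alternative fits. Among the losses were those with DESeq2 (0.205), in a fit of the 12 libraries (0.115), without replicate 2 (0.360) and without experiment 2 (0.762). CR1L, a relative of CR1 with near-identical stretches that can share reads, had 0.610 ± 0.154, 0.799 ± 0.174 and 0.732 ± 0.0857 CPM with guides, with dCas9-VP160 alone and without plasmid (SD, n = 2 experiments) and was not called in any comparison. CR1, C4BPA and C4BPB were not tested, with 3, 1 and 3 counts over the 12 libraries. Among 18 complement genes elsewhere in the genome 12 were tested. None was called between guides and dCas9-VP160 alone by edgeR, beside 7.56% of all tested genes, a share at which few calls among 12 would be looked for. With dCas9-VP160 alone over no plasmid 5 of them (41.7%) fell and none rose, beside 24.6% of all tested genes called lower and 51.2% called at all, among them CD59, which blocks the membrane attack complex (log2 fold change -0.51, SE 0.041, adjusted p = 7.9e-11), and the inhibitor SERPING1 (-1.50, SE 0.084, adjusted p = 4.6e-14).

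**Figure D3:**
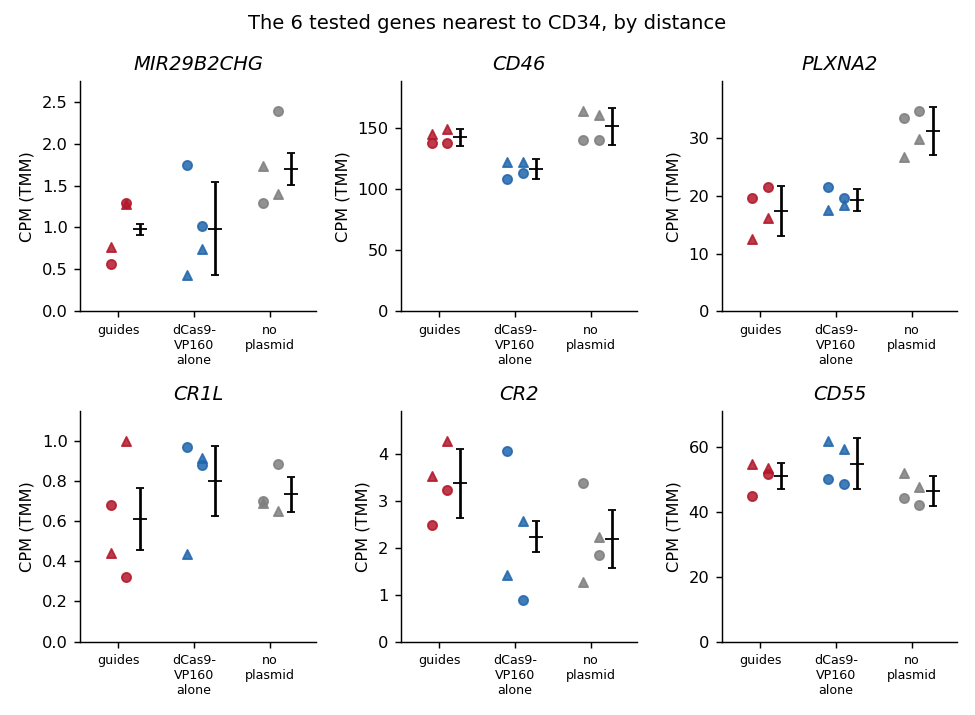
CPM in each library of the 6 tested genes nearest to CD34, in order of their gap (circles, experiment 1; triangles, experiment 2), with the mean and SD of the 2 experiments in black. CD46 is lowest with dCas9-VP160 alone, PLXNA2 is highest without plasmid, and the other 4 genes overlap between all groups.

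The larger differences in the neighbourhood separated transfected cells from cells without plasmid. With dCas9-VP160 alone 16 tested neighbours rose and 8 fell against no plasmid, 24 of 47 (51.1%), beside 51.2% of all tested genes, 26.6% called higher and 24.6% called lower. The other tested genes of chromosome 1 gave 52.7%. With guides 17 rose and 7 fell against no plasmid, again 24 of 47, beside 52.6% of all tested genes, 26.7% called higher and 25.9% called lower. The median log2 fold change of the tested neighbours was 0.14 for dCas9-VP160 alone and 0.20 for guides, beside -0.0020 and -0.016 over all tested genes. Both comparisons share the libraries without plasmid. The calls for dCas9-VP160 alone numbered 4 of 6 under 0.5 Mb, 3 of 4 at 0.5 to 1 Mb, 5 of 17 at 1 to 2 Mb and 12 of 20 at 2 to 3 Mb, with median log2 fold changes of -0.12, 0.72, 0.10 and 0.24. The nearest bands hold few genes, and their medians moved with the filter, the replicates left out and the measure of distance.

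**Figure D4:**
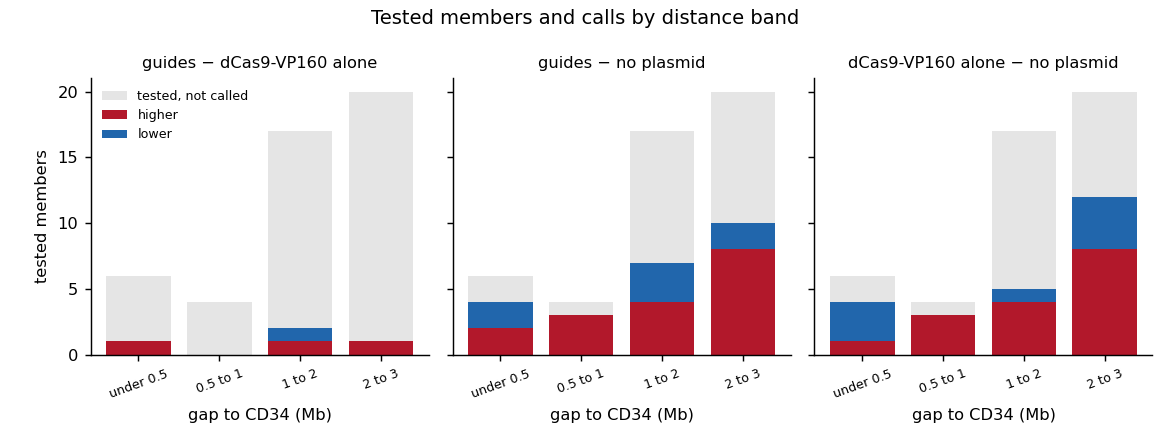
Number of tested neighbours (full bars) in 4 bands of the gap to CD34 in Mb, with those called higher in red and lower in blue, for each comparison. Between guides and dCas9-VP160 alone at most 2 genes are called in a band, and against no plasmid 3 or more are called in every band.

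LAMB3, a chain of a laminin of epithelial basement membranes, had the largest log2 fold change of the neighbours between dCas9-VP160 alone and no plasmid. It lies at chromosome 1, 209614870 to 209652466, on the minus strand, and had 23.8, 20.1, 19.1 and 21.6 CPM with guides, 19.7, 21.6, 19.0 and 16.1 CPM with dCas9-VP160 alone and 6.08, 8.40, 4.61 and 5.68 CPM without plasmid. Every transfected library exceeded every library without plasmid, and the transfected groups overlapped. The log2 fold change was 1.59 (SE 0.11, adjusted p = 5.7e-12) for dCas9-VP160 alone, 1.74 (SE 0.11, adjusted p = 6.8e-13) for guides and 0.15 (SE 0.093, adjusted p = 0.378) between guides and dCas9-VP160 alone. LAMB3 was also the only neighbour among the 97 genes of the authors' deposited table, which gives log2 fold changes of 1.73 (SE 0.148, adjusted p = 1.3e-04) for control and guides and 1.60 (SE 0.146, adjusted p = 0.0064) for control and dCas9-VP160. The statistics in the authors' deposited table would be 0 at a log2 fold change of 1, so they measure the distance from that change rather than from no change.

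Genes of nerve cell adhesion and guidance moved both ways. NFASC, an adhesion molecule of axons, had 4.98, 5.17, 6.07 and 4.84 CPM with guides, 4.35, 3.51, 3.82 and 3.33 CPM with dCas9-VP160 alone and 2.46, 1.77, 0.692 and 1.30 CPM without plasmid. The 3 groups did not overlap. It rose with dCas9-VP160 alone over no plasmid (log2 fold change 1.29, SE 0.24, adjusted p = 6.8e-05) and with guides over no plasmid (1.77, SE 0.23, adjusted p = 3.1e-07), while guides over dCas9-VP160 alone gave 0.48 (SE 0.19, adjusted p = 0.137) and passed the test only in a fit of those 2 groups alone (adjusted p = 0.0498). SYT14, of the synaptotagmin family of membrane proteins, had 8.55 ± 0.578, 8.59 ± 0.525 and 3.76 ± 0.188 CPM with guides, with dCas9-VP160 alone and without plasmid (SD, n = 2 experiments), and rose with dCas9-VP160 alone over no plasmid (log2 fold change 1.18, SE 0.15, adjusted p = 2.6e-07). SRGAP2, a protein that shapes migrating neurons, had 31.7 ± 2.87, 27.5 ± 1.23 and 42.5 ± 2.70 CPM and fell with dCas9-VP160 alone (log2 fold change -0.63, SE 0.076, adjusted p = 1.1e-07) and with guides (-0.43, SE 0.076, adjusted p = 3.0e-05) against no plasmid. SRGAP2 has near-identical copies elsewhere on the chromosome, so its reads can be shared. Together with PLXNA2, 2 of the 5 tested genes of this group rose and 2 fell with dCas9-VP160 alone, beside 26.6% of all tested genes called higher and 24.6% called lower, and the channel gene KCNH1 was not called.

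Among kinases and signalling genes, 5 of 11 tested rose and 1 fell with dCas9-VP160 alone over no plasmid, 54.5% beside 51.2% of all tested genes. NUAK2, an AMPK-related kinase, had 9.90 ± 0.0106 CPM with guides, 11.4 ± 0.225 CPM with dCas9-VP160 alone and 5.70 ± 0.132 CPM without plasmid, and rose with dCas9-VP160 alone over no plasmid (log2 fold change 1.00, SE 0.12, adjusted p = 1.8e-07). The deubiquitinase YOD1 had 51.5 ± 0.228, 50.8 ± 1.96 and 28.6 ± 1.33 CPM in the same order of groups (log2 fold change 0.83, SE 0.066, adjusted p = 4.9e-11). Its neighbour PFKFB2, an enzyme that sets the rate of glycolysis and shares 315 exon bases with YOD1 on the opposite strand, had 22.2 ± 0.620, 23.4 ± 3.15 and 15.3 ± 1.499 CPM (log2 fold change 0.62, SE 0.089, adjusted p = 1.6e-06). For these 3 genes no library without plasmid reached the range of either transfected group. IKBKE and DYRK3, whose calls did not hold under all alternatives as given above, were the other 2 that rose, and DSTYK fell (log2 fold change -0.16). Of 9 partners and relatives of IKBKE elsewhere in the genome, 4 (44.4%) rose with dCas9-VP160 alone and none fell, beside 26.6% of all tested genes called higher and 51.2% called at all, led by IRF7, a factor that IKBKE activates, at 15.2 CPM with dCas9-VP160 alone and 8.92 CPM without plasmid (log2 fold change 0.78, SE 0.11, adjusted p = 1.5e-06). None of the 9 was called between guides and dCas9-VP160 alone by edgeR, beside 7.56% of all tested genes.

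Membrane traffic and transport genes rose in 3 of 7 tested and fell in 1 with dCas9-VP160 alone over no plasmid, 57.1% beside 51.2% of all tested genes. RAB29, a GTPase of the Golgi and lysosomes, had 32.6, 32.0, 33.1 and 28.9 CPM with guides, 28.6, 31.7, 27.5 and 30.9 CPM with dCas9-VP160 alone and 15.4, 15.1, 14.8 and 17.9 CPM without plasmid. Both transfected groups lay above every library without plasmid and overlapped each other (log2 fold change for dCas9-VP160 alone 0.91, SE 0.082, adjusted p = 5.6e-10). SLC45A3, a membrane transporter best known from the prostate, had 2.34 ± 0.264, 3.36 ± 0.293 and 1.87 ± 0.400 CPM and rose with dCas9-VP160 alone (log2 fold change 0.79, SE 0.22, adjusted p = 0.0037), a call lost with DESeq2 (0.115), without replicate 1 (0.0955) and without experiment 1 (0.0736). TMCC2 rose as well (0.62, SE 0.14, adjusted p = 8.0e-04), a call lost without experiment 2, where its log2 fold change was 0.19 (adjusted p = 0.430). The magnesium transporter SLC41A1 fell (log2 fold change -0.19).

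Of the 6 tested transcription, chromatin and nucleolar genes, RBBP5, ELK4 and the ribosome biogenesis factor UTP25 rose and NUCKS1 and SERTAD4 fell with dCas9-VP160 alone over no plasmid, and the same 5 were called in those directions with guides. Over all tested genes 51.2% and 52.6% were called in those comparisons. SERTAD4 had 15.1, 15.8, 18.2 and 18.5 CPM with guides, 18.9, 13.7, 19.99 and 20.6 CPM with dCas9-VP160 alone and 24.1, 22.0, 30.2 and 29.1 CPM without plasmid. Both transfected groups lay below every library without plasmid (log2 fold change for dCas9-VP160 alone -0.49, SE 0.082, adjusted p = 1.4e-05), and its antisense neighbour SERTAD4-AS1, with 174 shared exon bases, was not called (-0.34). ELK4, a partner of serum response factor, had 26.7 ± 0.511, 25.5 ± 5.98 and 19.4 ± 2.49 CPM (log2 fold change 0.41, SE 0.093, adjusted p = 6.5e-04). That call held in 7 of 10 alternative fits and was lost without replicate 1 (0.142) and without experiment 2 (0.0716) among others. ELK4 shares 422 exon bases with MFSD4A on the opposite strand.

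**Figure D5:**
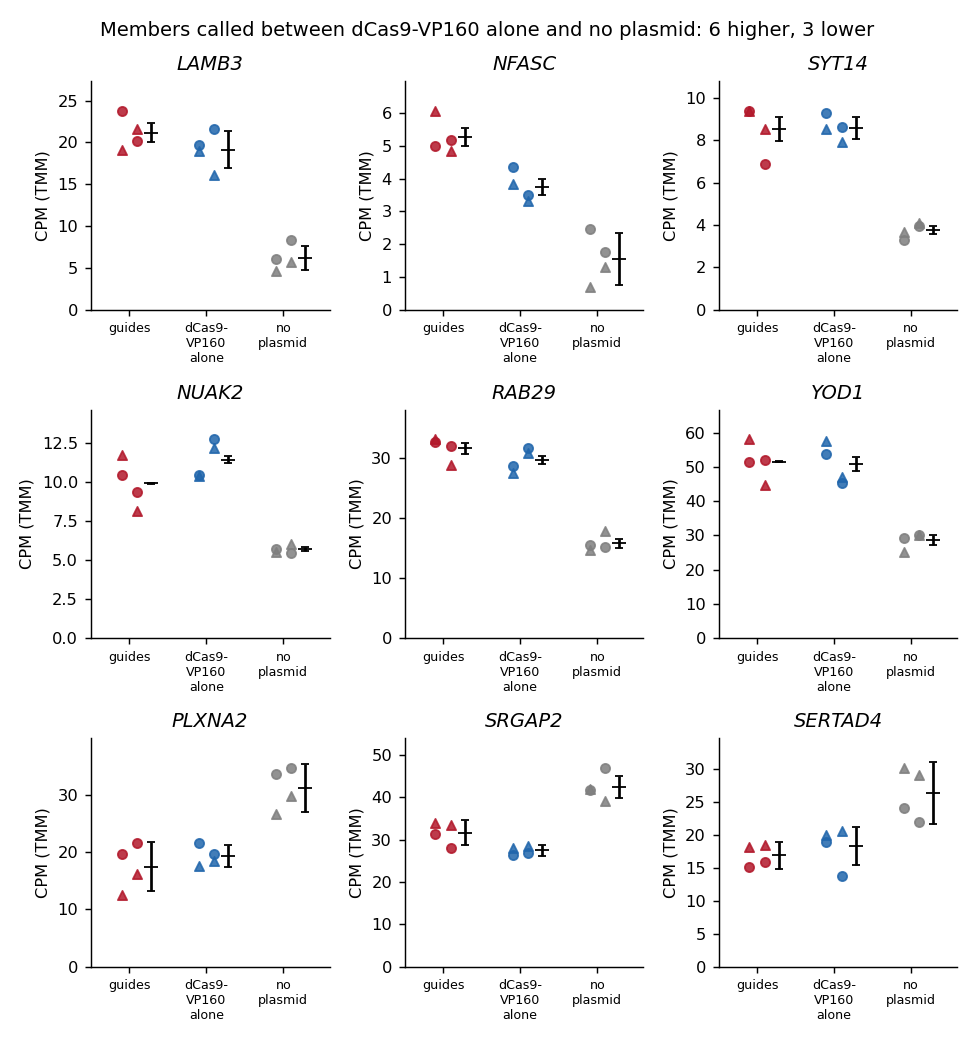
CPM in each library of 9 neighbours called between dCas9-VP160 alone and no plasmid, 6 higher and 3 lower (circles, experiment 1; triangles, experiment 2), with the mean and SD of the 2 experiments in black. In each of the 9 no library with dCas9-VP160 alone falls within the range of those without plasmid.

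The IL10 cytokine and immunoglobulin receptor genes stayed near or at 0. IL10 had no count in any library, which allows up to 0.251 to 0.444 CPM a library, the level of 3 counts. IL19, IL20 and IL24 had 3, 3 and 10 counts over the 12 libraries and the immunoglobulin receptors PIGR and FCAMR 7 and 10. FCMR, the receptor for immunoglobulin M, was the 1 tested gene of this group, at 1.74, 1.05 and 1.43 CPM on average with guides, with dCas9-VP160 alone and without plasmid, and was not called. Among the low genes outside the rule for named genes, C1orf116 was called against no plasmid with few counts, 5, 9, 9 and 0 in the guide libraries, 6, 2, 8 and 4 with dCas9-VP160 alone and 2, 0, 3 and 2 without plasmid. AL591846.2, an antisense gene with 64 counts in all, shares 23 exon bases with DYRK3 on the opposite strand. By edgeR it was called for guides over no plasmid (log2 fold change 1.11, SE 0.45, adjusted p = 0.039). For guides over dCas9-VP160 alone it had the largest rise of the tested neighbours and was not called (1.26, SE 0.46, adjusted p = 0.099).

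The promoter windows of 37 tested neighbours were searched for motifs on both strands. The AP-1 site TGACTCA occurred in 3 of them, those of C1orf116, YOD1 and SERTAD4-AS1, beside 4.96% of all 34941 windows. The box TATAAA occurred in 4, those of NUAK2, KLHDC8A, RAB7B and FAM72A, beside 11.6% of all windows. The degenerate NF-kB core occurred in 24 of 37, beside 58.6% of all windows, while the exact NF-kB and ATF4 motifs searched occurred in none of the 37 and in 0.527% and 0.535% of all windows.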

How the data were processed

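RNA from HEK293T cells was read as gene counts, which the authors deposited as whole, unnormalised numbers for 12 libraries. The submitters' processing notes name Trim Galore 0.3.7, STAR 2.6.0c, Picard 2.17.1, DESeq2 1.16.1 and the build hg38. No source used here gives the counting program or the annotation release. The authors' deposited table of 97 genes holds a mean normalised signal, log2 fold changes, a test score and p-values, and was used for LAMB3 alone. The 2 technical replicates of each experiment were summed to 6 libraries. Genes were filtered with filterByExpr, scaled by TMM and fitted with edgeR 4.0.16 (R 4.3.3) in a quasi-likelihood model with the experiment as a block over all 3 groups. P-values were adjusted by Benjamini-Hochberg over 19662 genes, and 0.05 was the threshold. A fit leaves 2 residual degrees of freedom, to which edgeR added a median of 24.0 from the spread of all genes. Small p-values therefore rest largely on that shared spread. The SE is the log2 fold change over the root of its F, and intervals span 2 SE. Levels are TMM-scaled CPM, with mean and SD over the 2 experiments. Deviations from the group means correlated at 0.493 to 0.515 between groups of the same experiment, over 15124 genes, and the experiments are separate batches of cells per the labels. A count of 3 corresponds to 0.251 to 0.444 CPM and limits counting error only. GENCODE v29 gave the positions, and 56812 gene rows matched it. RefSeq promoter windows were found for 60 neighbours, 37 of them tested. Genes named one by one are the tested neighbours under 0.5 Mb, those called between guides and dCas9-VP160 alone, and the 15 of at least 1 CPM with the largest changes between dCas9-VP160 alone and no plasmid. The members and lists were chosen with earlier results of these data known. Alternatives used RLE scaling, no filter, DESeq2 1.42.0, no block, 12 libraries, the 2 groups alone and left-out replicates or experiments. Technical replicates were not summed in the fit of 12 libraries or with an experiment left out, so they counted as replicates there. The fit was also run on simulated counts in which all groups fully shared the shift between experiments. That run cannot say how the fit behaves where the shift is shared in part.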

Additional observations from a re-analysis of the deposited data

Results flagged for a closer look

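In 3 of 63 groups of 4 libraries, over the 21 neighbours named one by one, 1 library stood far from the other three by Dixon's criterion, and chance alone flags about 1 group in 20. CR1L had its lowest value with dCas9-VP160 alone in experiment 2, replicate 1, at 0.4369 CPM. DYRK3 was lowest with dCas9-VP160 alone in experiment 2, replicate 2, at 11.74 CPM. ELK4 was lowest with guides in experiment 2, replicate 2, at 25.48 CPM. A difference in response between the experiments was tested in edgeR for 41 of the 47 tested neighbours, and the lowest adjusted p was 0.851, while 4 values of the named neighbours had an unadjusted p under 0.05. The lowest belonged to TMCC2, with a log2 difference of 0.17 in experiment 1 and 1.01 in experiment 2 between dCas9-VP160 alone and no plasmid. A p above the threshold does not show that the experiments responded alike. The test used all libraries unsummed, so its spread is that between technical replicates.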

How the results depend on the processing

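Over 606 values of the named neighbours under alternatives, 531 kept their direction and their side of the threshold, 56 lost the call, 1 gained it and 18 changed sign. All 18 were among the 217 of values not called, and none was called under the alternative either. Of 39 called values none changed sign and 23 were called under every alternative tried that gave an adjusted p. With a replicate or experiment left out, the values that changed sign between guides and dCas9-VP160 alone ranged from -0.7086 to 0.6865 for MIR29B2CHG, -0.15 to 0.132 for SYT14, -0.4985 to 0.0849 for NUAK2, -0.0306 to 0.2259 for RAB29, -0.0235 to 0.0682 for YOD1, -0.197 to 0.0465 for PFKFB2, -0.2497 to 0.0897 for TMCC2 and -0.1726 to 0.3228 for ELK4, and RLE scaling gave 0.0066 for SYT14. For dCas9-VP160 alone over no plasmid the ranges were -0.1662 to 0.254 for CR2 and -0.0095 to 0.2194 for HHAT, and for guides over no plasmid -0.2652 to 0.0506 for IKBKE. The 4 calls between guides and dCas9-VP160 alone became 2 with DESeq2, 0 with no replicate block, 2 where a log2 change of 0.5 or more in size was also asked, 1 within 1 Mb of CD34, and 2 to 4 with a replicate or experiment left out. The 24 between dCas9-VP160 alone and no plasmid became 16 with DESeq2, 15 with no replicate block, 13 at that fold, 7 within 1 Mb and 16 to 21 on leaving one out. The 24 between guides and no plasmid became 16 with DESeq2, 15 with no replicate block, 7 within 1 Mb and 16 to 20. Within 1 Mb 10 neighbours were tested. Over all tested genes DESeq2 called 1.83%, 31.2% and 33.8% in these 3 comparisons in turn, beside 7.56%, 51.2% and 52.6% in the main fit. With no replicate block the shares were 0.00509%, 28.3% and 31.0%. Leaving one out gave 1.68% to 4.57%, 40.9% to 44.2% and 42.3% to 46.4%. The shares at that fold are not given here. Of the named neighbours, 4 lost their call between dCas9-VP160 alone and no plasmid when the block was left out. For guides and no plasmid 5 lost it. The median log2 fold changes moved as follows. The neighbours fitted numbered 92 with no low-count filter, 39 with 12 libraries, 44 to 46 with 2 groups and 39 or 40 with a replicate or experiment left out, against 47. In a small band the median can be the value of 1 gene. For dCas9-VP160 alone over no plasmid, the range under 0.5 Mb with a replicate or experiment left out equals that of CD46, -0.4052 to -0.3477. What else moved the medians was not tested. With no low-count filter, dCas9-VP160 alone over no plasmid gave 0.1174 over all neighbours and -0.2361, 0.9476, 0.0375 and 0.1169 in the 4 bands by distance. Guides gave -0.2173 over dCas9-VP160 alone at 0.5 to 1 Mb, and 0.2178 at 0.5 to 1 Mb and 0.1486 at 2 to 3 Mb over no plasmid. With 12 libraries, dCas9-VP160 alone gave -0.3808, 0.6097 and 0.3271 under 0.5, at 0.5 to 1 and at 2 to 3 Mb. Guides gave 0.0217 over dCas9-VP160 alone at 0.5 to 1 Mb, and 0.5324 and -0.024 over no plasmid at 0.5 to 1 and 1 to 2 Mb. With 2 groups fitted, dCas9-VP160 alone gave 0.1653 over all neighbours and 0.6214, 0.1223 and 0.2832 in the bands from 0.5 Mb. By the distance between transcription starts, it gave -0.3742 and 0.6201 in the 2 nearest bands, and guides gave 0.0276 over dCas9-VP160 alone and 0.5426 over no plasmid at 0.5 to 1 Mb. With a replicate or experiment left out, guides over dCas9-VP160 alone ranged from -0.0059 to 0.077 over all neighbours and from -0.1659 to 0.2884, -0.197 to 0.0682, -0.1724 to 0.1136 and -0.0306 to 0.0897 in the bands. For dCas9-VP160 alone over no plasmid the ranges were 0.0924 to 0.2114, then -0.4052 to -0.3477, 0.484 to 0.7504, 0.058 to 0.1268 and 0.1902 to 0.4773. For guides over no plasmid they were 0.0487 to 0.2208 over all, and 0.4631 to 0.892, -0.0603 to 0.0738 and 0.073 to 0.5153 in the bands from 0.5 Mb. Depth limits the 78 untested neighbours, none of which had more than 42 counts.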
